A study of Mus musculus with 30 samples.

Results

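Satellite cells that had been sorted from injured mouse hindlimb muscle by the surface protein VCAM were compared at 60 h and at 36 h after injury. The members are the arrays whose sample titles give this sort, young mice and either time, 3 arrays at 36 h and 3 at 60 h, or 6 of the 30 arrays in the series. All 6 carry RNA of wild-type C57BL6 mice aged 2 to 3 months whose muscle was injured with BaCl2, a salt that destroys fibres. The sort kept cells with VCAM on their surface and without CD31 (endothelial cells), CD45 (leukocytes) or Sca1 (other mesenchymal cells). The 60 and 36 h arrays of the other sort in the series, YFP+ cells of Pax7CreER/+;ROSA26eYFP/+ mice of the same age and injury (3 arrays each), were used to ask where the step differed. In those mice Cre is made from the Pax7 locus and the reporter stays on in descendants of cells that expressed Pax7 when tamoxifen was given. No label ties an array to an animal, so the p-values measure only the spread between arrays of a group, which may be technical. The fit took that spread from all 30 arrays of the series, in 10 groups. These include quiescent cells, cells at 84 h and cells of mice aged 22 to 24 months. Values are log2 RMA intensities of Mouse Gene 1.0 ST arrays, with 1 probe set per gene for 19938 genes. The medians of the 6 arrays lay between 7.03 and 7.08, the arrays of a group correlated at 0.996 to 0.997 across genes, and across genes the median SD between arrays of 1 group, pooled over groups, was 0.10. Changes given without the word fold are differences of log2 intensity, 60 h minus 36 h.

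Satellite cells are the resident stem cells of skeletal muscle. They lie quiet under the basal lamina of a fibre, and after injury they enter the cell cycle, divide as myoblasts, and then withdraw from the cycle to fuse into new fibres. Pax7 marks the stem cell state, Myod1 and Myf5 commitment to the myogenic lineage, and Myog the start of terminal differentiation. Injured muscle also fills with neutrophils, then macrophages, and fibroblasts lay down matrix around the regenerating fibres.

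Between 36 and 60 h, 1249 genes rose and 1692 fell, which is 6.26% and 8.49% of all genes tested. A gene was counted when the limma adjusted p was under 0.05 and the fold change at least 1.5. The arrays of the 2 times did not overlap for any of these genes, and 10121 of the 19938 genes in all showed no overlap. Falls were deeper than rises, with 194 genes at least 4-fold lower and 5 genes at least 4-fold higher. Many genes of mitosis, DNA replication, the contractile apparatus and mitochondria rose, and many genes of chemokines, cytokines, matrix and of other cell types of muscle fell, as the plot of calls per gene list shows. When each array was centred on the median of the genes tested, the median change of all genes moved from 0.00 to 0.11 and the counts became 1992 and 1384, or 59.0% in place of 42.5% higher among the calls. Limma called 0 members higher in several lists of genes that fell, and at an unadjusted p under 0.05 between 0 and 4 members of these lists were higher. In the lists of genes that rose with 0 called lower, 0 or 1 member was lower at that p. These are bulk values, so fewer cells of a type and less RNA per cell cannot be told apart.

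**Figure D1:**
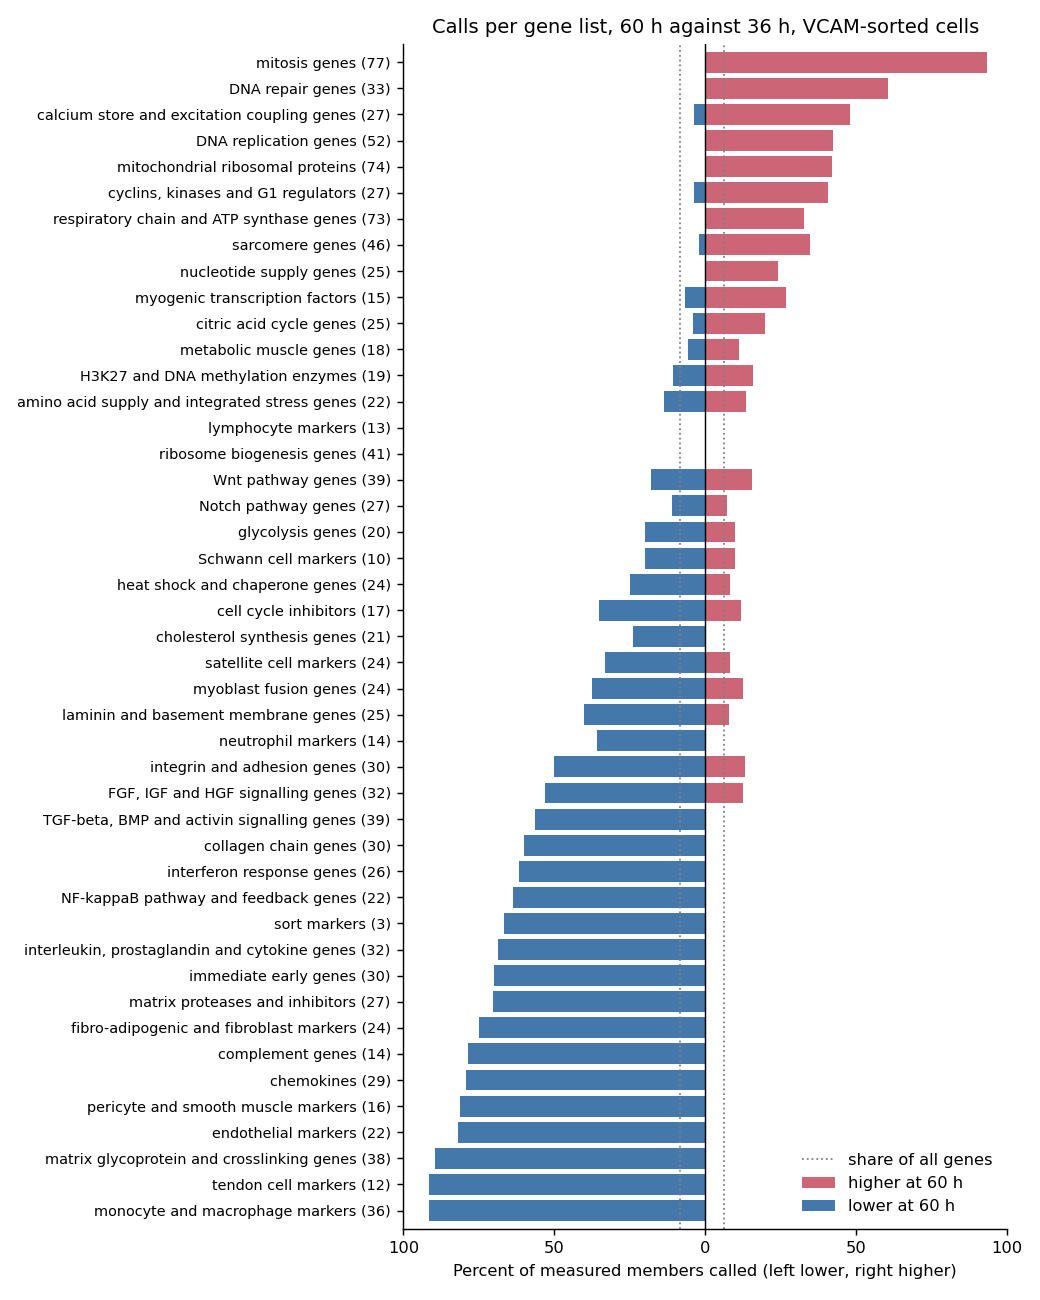
Share of the measured members of each of 45 gene lists (number in brackets) called higher (right) or lower (left) at 60 h than at 36 h in VCAM-sorted cells, in percent. Dotted lines mark the shares over all genes, 6.26% higher and 8.49% lower. Of the mitosis genes 72 of 77 were higher, and of the monocyte and macrophage markers 33 of 36 were lower.

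Muscle structural genes were among the largest rises. Titin, the giant protein that spans the sarcomere from Z disc to M line, is encoded by Ttn (probe set 10483871, chromosome 2). Its level was 7.85, 7.85 and 7.93 at 36 h and 10.89, 10.93 and 11.01 at 60 h, with a wide gap between the times, and it rose 8.38-fold (log2 change 3.07, SE 0.05, adjusted p = 1.6e-24). Nebulin, the ruler of the thin filament, showed the same order. Neb read 6.65, 6.76 and 6.84 at 36 h and 8.45, 8.51 and 8.60 at 60 h, a rise of 1.77 (adjusted p = 1e-19). Myh3 encodes the embryonic myosin heavy chain, which is the first to appear in regenerating fibres. Its level was low at 36 h and higher on every array at 60 h, with 5.90, 5.94 and 5.98 at 36 h and 7.69, 7.86 and 7.98 at 60 h (log2 change 1.90, SE 0.08, adjusted p = 4.4e-17). Smyd1, a methyltransferase and chaperone partner that folds myosin, rose by 1.61, and Actn3, the alpha-actinin of fast fibres, by 1.28. Among 46 sarcomere genes measured 16 rose and 1 fell, with a median log2 change of 0.35. The gene that fell was Cryab, a small heat shock protein that protects desmin and other filaments, from 10.36 ± 0.07 to 9.44 ± 0.09 (SD, n = 3). The median of all genes was 0.00.

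The machinery that receives the nerve signal and stores calcium moved with the sarcomere. Of 27 such genes 13 rose and 1 fell (median log2 change 0.40). Chrng encodes the gamma subunit of the acetylcholine receptor, which embryonic and regenerating muscle uses before the adult subunit replaces it (probe set 10348166, chromosome 1). It read 7.67, 7.61 and 7.59 at 36 h and 9.40, 9.52 and 9.65 at 60 h (log2 change 1.90, SE 0.07, adjusted p = 4.1e-18). The delta subunit gene Chrnd read 8.75, 8.74 and 9.002 at 36 h and 10.42, 10.66 and 10.64 at 60 h, and neither gene had arrays that overlapped. Chrnd rose 3.34-fold (adjusted p = 7.5e-15), and Atp1b1, the beta subunit of the sodium pump, 5.06-fold, from 7.66, 7.51 and 7.70 at 36 h to 9.90, 9.96 and 10.03 at 60 h (adjusted p = 8.8e-18). Srl, which encodes the calcium-binding protein sarcalumenin of the sarcoplasmic reticulum, rose by 1.53. The single fall was that of Cacna2d1, an auxiliary subunit of voltage-gated calcium channels, with a log2 change of -1.11.

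Promoters of these genes are shown because E-boxes, the short sites that basic helix-loop-helix factors such as MyoD and myogenin bind, lie near the start of many muscle genes. The letters CAGCTG, which read the same on both strands, were searched in the 250 bases before the start of each gene (RefSeq, GRCm38.p6). They occur in 15 of 36 sarcomere genes with a promoter in the table (41.7%) and in 7 of 14 genes of calcium storage and excitation (50%), against 14.7% of all 27025 genes. The calcium list was added to the search after the sarcomere list. The MEF2 letters CTAAAAATA occur in 0 of the 36 sarcomere promoters and in 0.5% of all genes. A match is a description of letters and not evidence of a bound site. Chrng (plus strand, chr1:87205561-87205810) holds the E-box letters 155 and 132 bases before its start, and Chrna1 (minus strand, chr2:73580339-73580588), which encodes the alpha subunit, 92 and 44 bases before. Chrna1 was chosen for its promoter, and its level rose by 1.06, from 10.54, 10.53 and 10.53 at 36 h to 11.59, 11.62 and 11.58 at 60 h. Capitals mark the E-box letters, and each sequence runs 5′ to 3′ on the strand of the gene up to the base before the start.
Chrng: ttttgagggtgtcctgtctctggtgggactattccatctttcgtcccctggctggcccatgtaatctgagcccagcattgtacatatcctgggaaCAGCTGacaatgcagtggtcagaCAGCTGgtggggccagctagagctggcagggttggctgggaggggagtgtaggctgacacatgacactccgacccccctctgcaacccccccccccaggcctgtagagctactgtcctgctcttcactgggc
Chrna1: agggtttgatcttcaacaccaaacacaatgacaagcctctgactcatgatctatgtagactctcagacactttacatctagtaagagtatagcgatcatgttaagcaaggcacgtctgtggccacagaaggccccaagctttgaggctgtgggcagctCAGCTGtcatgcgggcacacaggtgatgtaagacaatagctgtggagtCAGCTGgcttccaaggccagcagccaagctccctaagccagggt

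Other leading rises were mixed in kind. Eno3, the muscle form of the glycolytic enzyme enolase, read 10.27, 10.37 and 10.42 at 36 h and 12.42, 12.48 and 12.49 at 60 h and rose 4.31-fold (adjusted p = 1.5e-21). Cavin4, a coat protein of caveolae in muscle, rose by 1.89, and Egln3, an oxygen-dependent prolyl hydroxylase, by 1.81. Mbnl3, a splicing regulator of the muscleblind family, rose by 1.87. The largest rise of all was that of Dynap, which encodes a transmembrane protein, 9.03-fold, from 5.72, 5.69 and 5.84 at 36 h to 8.87, 8.85 and 9.05 at 60 h (adjusted p = 3.3e-21). Rps6ka6 (a kinase of the RSK family) rose by 2.08, Nrcam (a neuronal adhesion molecule) by 1.77, Ly75 (an endocytic receptor) by 1.87 and Trp53i11 by 1.76. Together with Ttn, Neb, Myh3, Atp1b1, Chrng, Chrnd and Eno3 these are the 15 largest rises.

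**Figure D2:**
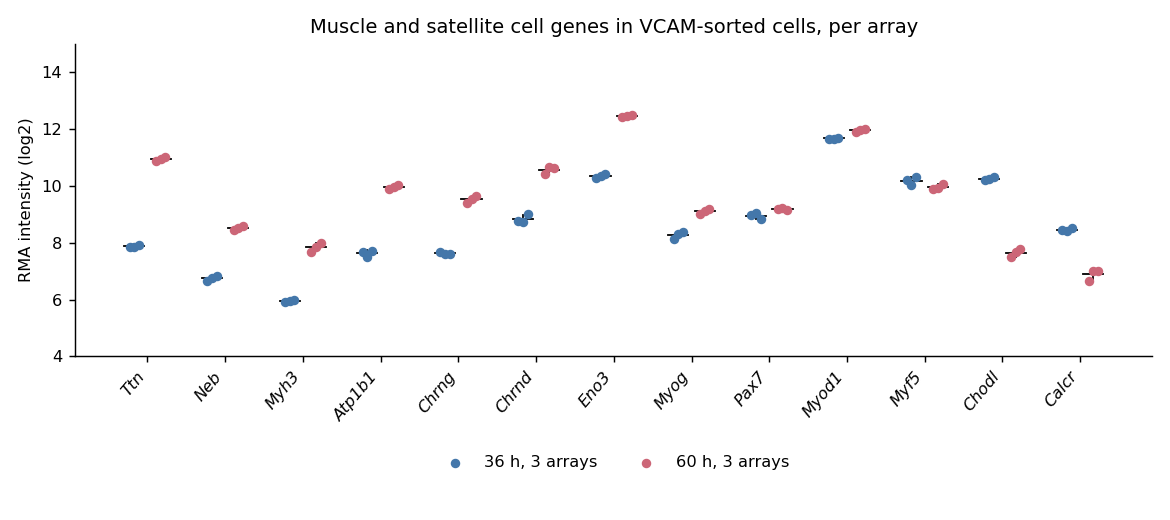
RMA intensity (log2) of 13 muscle and satellite cell genes on each of the 3 arrays at 36 h (blue) and the 3 at 60 h (red), with group mean and SD as black lines. Ttn moves from a mean of 7.88 to 10.94 and Chodl from 10.26 to 7.64, while the Myf5 arrays of both times overlap.

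Regulators of the lineage changed by less than Ttn, Neb and Myh3, which are among the 15 largest rises. Over whole lists the median change was 0.21 for 15 myogenic transcription factors and 0.35 for 46 sarcomere genes. Myog (probe set 10349993, chromosome 1) read 8.13, 8.31 and 8.37 at 36 h and 9.01, 9.13 and 9.18 at 60 h, a rise without overlap (log2 change 0.84, SE 0.07, adjusted p = 4.2e-11). Its mean at 84 h was 11.60 and in quiescent cells 7.75. Pax7 (probe set 10517715, chromosome 4) read 8.98, 9.05 and 8.83 at 36 h and 9.18, 9.24 and 9.15 at 60 h, so that the times did not overlap, but its change of 0.24 was below the fold required (adjusted p = 0.0029). Myod1 changed by 0.29 from a high level, 11.66, 11.67 and 11.69 at 36 h to 11.92, 11.97 and 12.001 at 60 h. Myf5 read 10.21, 10.04 and 10.30 at 36 h and 9.91, 9.94 and 10.06 at 60 h, with overlap between the times and a change of -0.21. Of 15 myogenic transcription factors 4 rose and 1 fell. Besides Myog these were the homeodomain factor Six4, by 1.12, its coactivator Eya1, by 0.64, and Tcf12, a partner of the MyoD family, by 0.61. Without replicate 3 at 60 h the changes of Eya1 and Tcf12 were both 0.58, below the fold required, and under quantile normalization Tcf12 was at 0.55 and not called either. Mef2c, a factor of late differentiation and also of other cell types, fell from 8.20, 8.16 and 8.31 at 36 h to 7.26, 6.95 and 7.12 at 60 h (log2 change -1.12, SE 0.07, adjusted p = 3.6e-13).

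Markers of the quiescent cell went on falling. Chodl, a surface lectin of quiescent satellite cells, read 10.22, 10.25 and 10.30 at 36 h and 7.49, 7.67 and 7.77 at 60 h and fell 6.12-fold (log2 change -2.61, SE 0.07, adjusted p = 1.6e-21). Calcr, the calcitonin receptor, read 8.45, 8.41 and 8.52 at 36 h and 6.65, 7.02 and 7.01 at 60 h (log2 change -1.57), and the BMP antagonist Chrdl2 fell by 1.25. In quiescent VCAM cells the mean levels of these genes were 13.02, 12.03 and 12.24. Cd34, a sialomucin of satellite cells that endothelial cells also carry, fell by 1.42, and the peptide gene Edn3 by 1.12. Of 24 satellite cell markers 8 fell and 2 rose, against 8.49% and 6.26% of all genes, with a median of -0.33. Their summed level was 15.58 to 15.61 at 36 h and 15.30 to 15.37 at 60 h, against 16.52 to 16.54 in quiescent cells. The 2 that rose were Cdh15, or M-cadherin, from 9.28, 9.27 and 9.16 at 36 h to 10.22, 10.16 and 10.18 at 60 h, and Met, the receptor for hepatocyte growth factor, by 0.61. Of 24 fusion genes 3 were higher and 9 lower, against 6.26% and 8.49% of all genes. The 3 higher ones were Cdh15, the N-cadherin gene Cdh2 (by 1.23) and Mymk, whose product myomaker drives the merging of myoblast membranes. Mymk read 8.42, 8.41 and 8.50 at 36 h and 9.32, 9.72 and 9.71 at 60 h and rose by 1.14 (adjusted p = 3.3e-11). The largest falls of that list were Ptgs2 (prostaglandin synthesis), Elmo1 (an activator of Rac), Adam12 (a metalloprotease), Igsf10 and Jam2 (a junction protein), by 2.62, 2.06, 1.57, 1.48 and 1.39.

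Genes of cell division rose almost as a whole. Of 77 mitosis genes 72 rose and 0 fell, with a median of 0.92, against 6.26% of all genes called higher. Plk1, the kinase that drives entry into mitosis and centrosome maturation (probe set 10557156, chromosome 7), read 9.61, 9.54 and 9.63 at 36 h and 10.83, 10.87 and 10.96 at 60 h (log2 change 1.29, SE 0.16, adjusted p = 1.7e-07). Sgo1, which protects centromeric cohesin, rose by 1.44 from 7.94, 8.10 and 7.94 at 36 h to 9.34, 9.49 and 9.46 at 60 h. The kinetochore motor gene Cenpe rose by 1.31, the kinesin gene Kif20b by 1.29 and Cenpf, a kinetochore protein, by 1.28. Their arrays did not overlap, and their mean levels in quiescent cells were 6.65, 6.22, 6.10, 6.11 and 6.38. The mean level of the whole list was 6.87 in quiescent cells, 9.20 at 36 h, 10.10 at 60 h and 9.82 at 84 h.

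Promoters of mitosis genes often hold the CHR element and CCAAT boxes, and 2 are printed as examples. The letters TTTGAA occur in 25 of 65 mitosis genes with a promoter (38.5%) and in 18.3% of all genes, and CCAAT in 44 (67.7%) and in 37.5% of all genes, on either strand. Both occur in 21 of 65 (32.3%) and in 7.3% of all genes. Plk1 (plus strand, chr7:122159185-122159434) has CCAAT 14 bases before its start and no TTTGAA. Kif14 (plus strand, chr1:136467598-136467847), a kinesin of the midbody, is shown as the largest rise, 1.26, among those with both. It has TTTGAA 228 and CCAAT 92 bases before the start. Capitals mark these letters, and no match overlaps another.
Plk1: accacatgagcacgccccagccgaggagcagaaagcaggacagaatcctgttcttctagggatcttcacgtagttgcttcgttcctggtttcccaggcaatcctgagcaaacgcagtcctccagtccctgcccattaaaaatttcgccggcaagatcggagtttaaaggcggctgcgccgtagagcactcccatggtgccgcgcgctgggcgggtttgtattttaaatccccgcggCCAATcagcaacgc
Kif14: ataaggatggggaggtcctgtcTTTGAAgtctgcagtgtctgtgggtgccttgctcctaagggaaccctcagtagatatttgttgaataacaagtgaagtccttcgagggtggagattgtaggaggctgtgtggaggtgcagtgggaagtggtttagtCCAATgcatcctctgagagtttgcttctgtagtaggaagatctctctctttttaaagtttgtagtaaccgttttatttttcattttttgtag

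Replication, repair and the entry into S phase rose by less. Of 52 DNA replication genes 22 rose and 0 fell (median 0.50). Dbf4, the activating subunit of the kinase that fires origins, rose from 8.88, 8.90 and 8.78 at 36 h to 9.97, 10.02 and 10.06 at 60 h (log2 change 1.17, SE 0.08, adjusted p = 3.2e-12), followed by Dna2 (a nuclease of Okazaki fragments) by 1.11, the origin recognition genes Orc1 and Orc5 by 0.99 and 0.97 and the licensing inhibitor Gmnn by 0.97. The E2F letters TTTGGCGC, TTTCCCGC and TTTGGCGG occur in 3, 4 and 3 of the 43 members with a promoter, or 7.0%, 9.3% and 7.0%, against 0.5%, 1.0% and 0.5% of all genes. Of 33 DNA repair genes 20 rose, among them Rad51ap1 by 1.11, the helicase gene Blm by 1.07 and the nuclease gene Exo1 by 0.94. Of 25 genes of nucleotide supply 6 rose, with Dut (removal of dUTP) at 0.87 and Dck (salvage of deoxynucleosides) at 0.85. Among the cyclins Ccnd2 and Ccne1 went opposite ways. Ccnd2, the D-type cyclin of early G1 (probe set 10548105, chromosome 6), read 11.06, 10.79 and 10.92 at 36 h and 8.85, 8.80 and 9.0001 at 60 h and fell 4.11-fold (log2 change -2.04, SE 0.08, adjusted p = 5.7e-18). Ccne1, a cyclin of the G1 to S transition, read 9.34, 9.38 and 9.41 at 36 h and 10.57, 10.62 and 10.75 at 60 h and rose 2.41-fold (log2 change 1.27, SE 0.10, adjusted p = 1.7e-11). Ccne2 rose by 1.21, Skp2, which marks p27 for degradation, by 1.27, and the repressor E2f8 by 1.44. Over the list of 27 cyclins, kinases and G1 regulators 11 rose and Ccnd2 alone fell. Of 17 cell cycle inhibitors 6 fell and 2 rose, against 8.49% and 6.26% of all genes. Among the falls were the antiproliferative gene Btg2 at -1.71 and the stress genes Gadd45b and Gadd45g at -0.83 and -0.82. Those that rose were Cdkn2a, by 0.72, and Cdkn2c, by 0.67.

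Part of the mitochondrial genes rose. Of 73 respiratory chain and ATP synthase genes 24 rose and 0 fell (median 0.45), and 71 had a change above 0. Ndufs8 (complex I) was the largest, from 9.01, 9.17 and 9.18 at 36 h to 9.91, 9.97 and 10.20 at 60 h (log2 change 0.90, SE 0.08, adjusted p = 1.3e-10), with Ndufb8 at 0.86, Atp5g3 (ATP synthase) at 0.85 and Cyc1 (complex III) at 0.76. Of 74 mitochondrial ribosomal protein genes 31 rose and 0 fell (median 0.53), led by Mrpl47 at 1.31. Of 25 citric acid cycle genes 5 rose and 1 fell. Idh3a, a subunit of isocitrate dehydrogenase, rose by 0.87, and the gene that fell was Pcx, pyruvate carboxylase, by 0.85. Of 18 metabolic genes of muscle, Eno3 and Ldhb (a lactate dehydrogenase chain, 0.65) rose and Ampd3 (AMP deaminase, -1.90) fell. Over all genes 6.26% rose and 8.49% fell. Of 20 glycolysis genes 2 were higher and 4 lower, against the same shares of all genes. Hk2, the inducible hexokinase, read 11.80, 11.83 and 11.91 at 36 h and 10.43, 10.47 and 10.57 at 60 h (log2 change -1.36), and Pfkfb3, which makes an activator of glycolysis, and Slc16a3, a lactate exporter, fell by 1.10 and 0.95. Ribosome biogenesis genes, 41 in number, held 0 calls by limma in either direction at this fold. At an unadjusted p under 0.05, 34 were higher and 0 lower, and the largest change was that of the nucleolar gene Nolc1, 0.58, which became 0.69 and was called with arrays centred on the genes tested. The cystine transporter gene Slc7a11 had the largest fall among 22 genes of amino acid supply and stress, 2.85, with arrays of 10.90, 10.87 and 10.92 at 36 h and 7.97, 8.08 and 8.11 at 60 h, while Phgdh and Psat1 of serine synthesis rose by 0.80 and 0.68. In that list 3 rose and 3 fell, against 6.26% and 8.49% of all genes. Of 21 cholesterol synthesis genes 0 rose and 5 fell (median -0.28). These were Insig1 and Insig2, which hold back the pathway, by 0.85 and 0.62, and the enzyme genes Ebp, Sc5d and Hsd17b7 by 0.67, 0.64 and 0.62. With arrays centred on the genes tested Insig1 alone was still called. The sterol element TCACNCCAC occurs in 1 of 17 members with a promoter (5.9%) and in 1.2% of all genes.

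Markers of other cell types fell between 36 and 60 h in most lists. The sort had gates against CD31, CD45 and Sca1, and none named in the labels for pericytes, tendon cells or Schwann cells. Pecam1, which encodes the excluded antigen CD31, read 9.55, 9.54 and 9.67 at 36 h and 7.39, 7.26 and 7.37 at 60 h (log2 change -2.24, SE 0.06, adjusted p = 2.5e-20). Ptprc, the gene of CD45, read 9.09, 8.96 and 9.09 at 36 h and 7.42, 7.56 and 7.50 at 60 h (log2 change -1.55, SE 0.07, adjusted p = 5.3e-16). Vcam1, the antigen sorted for, read 12.78, 12.78 and 12.78 at 36 h and 12.28, 12.26 and 12.35 at 60 h and its change of -0.48 was not called. Of 36 monocyte and macrophage markers 33 fell and 0 rose (median -1.73). Their summed level was 14.96 to 15.03 on the log2 scale at 36 h and 13.11 to 13.18 at 60 h, against 11.75 to 11.82 in quiescent VCAM cells and 14.12 to 14.14 at 84 h. The defining markers Adgre1 and Csf1r fell by 2.08 and 1.77, to 7.55 and 7.66. Of 22 endothelial markers 18 fell (median -1.22), with summed levels of 13.25 to 13.31 at 36 h and 11.88 to 11.92 at 60 h, against 13.34 to 13.38 in quiescent VCAM cells. The defining marker Cdh5, VE-cadherin, read 9.62, 9.57 and 9.70 at 36 h and 7.04, 7.33 and 7.28 at 60 h. Of 16 pericyte and smooth muscle markers 13 fell, with summed levels of 13.78 to 13.89 and 12.77 to 12.84, against 14.65 to 14.715 in quiescent VCAM cells. Rgs5 read 10.31, 10.35 and 10.44 at 36 h and 7.53, 7.63 and 7.81 at 60 h. Of 24 fibro-adipogenic and fibroblast markers 18 fell, with summed levels of 16.12 to 16.15 and 14.54 to 14.62, against 15.13 to 15.15 in quiescent VCAM cells. Pdgfra read 11.71, 11.71 and 11.78 at 36 h and 9.14, 9.25 and 9.25 at 60 h. Of 12 tendon cell markers 11 fell, with summed levels of 15.62 to 15.65 and 13.39 to 13.47, against 12.75 to 12.81 in quiescent VCAM cells. But Scx, the defining factor of tendon cells, had a change of 0.41, not called. Of 14 neutrophil markers 5 fell, with summed levels of 10.96 to 11.02 and 9.74 to 9.75, against 9.97 to 10.09 in quiescent VCAM cells. The granule protein gene Ngp moved from 7.05 to 5.46. Lymphocyte markers, 13 in number, held 0 calls by limma and 0 at an unadjusted p under 0.05, Cd3e and Cd79a sat at 7.06 and 5.21 at 60 h, and the summed level was 9.38 to 9.53 and 9.29 to 9.53. Of 10 Schwann cell markers 2 fell, Egr2 and Pmp22, which are not particular to that cell, by 1.90 and 1.60, and 1 rose, Erbb3, by 0.91. The lists of matrix, protease, chemokine, cytokine, immediate early and growth factor genes that follow fell beside these markers, and several share members with them. The rises of the mitosis, replication, mitochondrial and sarcomere lists and the fall of satellite cell markers lie over the same step. The part of the markers in all these results was not tested.

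**Figure D3:**
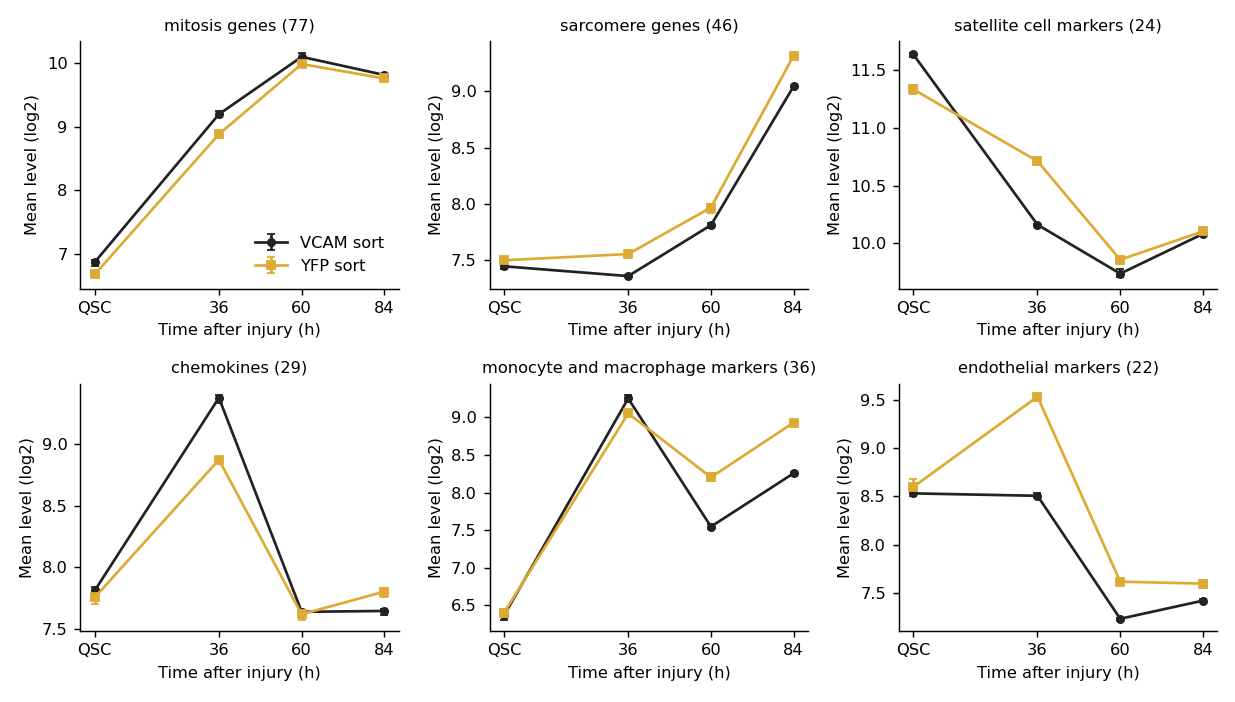
Mean level (log2) of 6 gene lists in VCAM-sorted (black) and YFP-sorted (yellow) young cells in quiescent cells (QSC, drawn at 0) and at 36, 60 and 84 h, with the range of the 3 arrays as bars and the number of genes in brackets. Macrophage markers in VCAM cells go from 9.25 at 36 h to 7.55 at 60 h, and mitosis genes from 9.20 to 10.10.

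Tendon and matrix genes included some of the deepest falls. Angptl7, a secreted angiopoietin-like protein of tendon (probe set 10518526, chromosome 4), read 12.49, 12.48 and 12.49 at 36 h and 8.25, 8.50 and 8.43 at 60 h and fell 17.1-fold (log2 change -4.09, SE 0.08, adjusted p = 3.8e-23). Prg4 (lubricin) fell by 2.55 from a mean of 13.57, the small leucine-rich proteoglycan genes Kera and Fmod by 2.54 and 2.48, and Mkx, a homeodomain factor of tendon, by 2.08. The matricellular gene Thbs4 remained bright, at 12.18 after a fall of 1.89. Matrix glycoprotein and crosslinking genes fell in 34 of 38 cases (median -1.29), among them Prelp from 12.39, 12.37 and 12.49 at 36 h to 9.36, 9.52 and 9.51 at 60 h, the hyaluronan synthase gene Has1 by 2.54 and the crosslinking enzyme gene Tgm2 by 2.40. Of 30 collagen chain genes 18 fell, with Col6a1 at -1.86, the basement membrane chains Col4a1 and Col4a2 at -1.81 and -1.75 and Col12a1 at -1.66. Of 25 laminin and basement membrane genes 10 fell, Lama4 and Sgcd (a sarcoglycan) by most, 2.02 and 1.96. The 2 that rose were Itga3, the alpha chain of an integrin that binds laminin, from 8.14, 8.16 and 8.49 at 36 h to 9.80, 9.87 and 10.01 at 60 h (log2 change 1.63, SE 0.09, adjusted p = 1e-14), and the laminin chain Lama5, by 0.96. Among 30 integrin and adhesion genes 4 rose and 15 fell, with Itga1 (a collagen receptor chain) at -2.47, Cdh11 (cadherin of mesenchymal cells) at -2.32, Itga2 at -1.83 and Itgb5 at -1.80. Mgp, an inhibitor of calcification in matrix, and Vit, which encodes the matrix protein vitrin, were among the 15 largest falls of all, at -3.04 and -3.08. Adh1, an alcohol and retinol dehydrogenase, was another, at -3.61.

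Proteases that remodel this matrix fell as well, 19 of 27 with 0 higher (median -1.33). Mmp3, or stromelysin (probe set 10583071, chromosome 9), read 10.27, 10.44 and 10.19 at 36 h and 6.19, 6.79 and 6.46 at 60 h and fell 14.1-fold (log2 change -3.82, SE 0.14, adjusted p = 3.2e-18). The protease inhibitor gene Serpina3n read 12.01, 12.04 and 11.999 at 36 h and 8.47, 8.61 and 8.77 at 60 h, a fall of 3.40. Serpinb2 (inhibitor of plasminogen activators), Mmp2 (gelatinase) and Adamts5 (aggrecanase) fell by 2.72, 2.63 and 2.42. The AP-1 letters TGANTCA occur in 6 of 19 members with a promoter (31.6%) and in 7.8% of all genes. In Mmp3 (plus strand, chr9:7445572-7445821), shown because its fall is the deepest of the list, they start 46 bases before the start and are in capitals. Mmp3 and other members with a match lie on chromosome 9, so the matches may not be independent occurrences.
Mmp3: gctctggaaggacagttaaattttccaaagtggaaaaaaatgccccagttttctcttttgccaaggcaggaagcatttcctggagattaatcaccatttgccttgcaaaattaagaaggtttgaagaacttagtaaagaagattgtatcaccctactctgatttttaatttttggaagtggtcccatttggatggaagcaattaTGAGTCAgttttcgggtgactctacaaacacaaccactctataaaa

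Chemokines, which call leukocytes into injured tissue, fell in 23 of 29 cases with 0 higher (median -1.39, against 8.49% of all genes called lower). Cxcl13, which attracts B cells (probe set 10523359, chromosome 5), read 10.37, 10.49 and 10.37 at 36 h and 5.96, 5.90 and 6.28 at 60 h, the largest fall of all genes, 20.6-fold (log2 change -4.36, SE 0.15, adjusted p = 5.5e-19). Ccl6, a chemokine of myeloid cells, read 11.40, 11.31 and 11.44 at 36 h and 7.49, 7.77 and 7.78 at 60 h and fell by 3.71. The platelet chemokines Ppbp and Pf4 fell by 3.29 and 3.14, and Cxcl5, a ligand of the neutrophil receptor CXCR2, read 11.91, 11.88 and 11.91 at 36 h and 8.93, 8.79 and 8.83 at 60 h. At 84 h the means of Cxcl13, Ccl6 and Cxcl5 were 6.31, 7.48 and 7.56, near those at 60 h or below.

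Cytokine genes gave the same picture, with 22 of 32 lower and 0 higher (median -1.22). Il6, which stimulates myoblast proliferation and inflammation (probe set 10520452, chromosome 5), read 11.91, 11.85 and 11.95 at 36 h and 8.55, 8.75 and 8.76 at 60 h and fell 9.28-fold (log2 change -3.21, SE 0.07, adjusted p = 6.2e-23). Ptgs2, the inducible cyclooxygenase, read 13.32, 13.35 and 13.26 at 36 h and 10.67, 10.74 and 10.65 at 60 h, still a bright signal at 60 h after a fall of 2.62. Il1b and Lif fell by 2.58 and 2.54, and Il1a by 2.29. Of 22 genes of the NF-kappaB pathway 14 fell and 0 rose, with the receptor gene Tlr2 at -2.16, Tnfaip2 at -2.15 and the feedback gene Irak3 at -2.09. The adhesion gene Icam1, counted in that list too, fell by 1.99. Of 14 complement genes 11 fell, with the C5a receptor gene C5ar1 at -2.55 and the C1 inhibitor gene Serping1 at -2.53. Of 26 interferon response genes 16 fell, led by Trim30a and Ifit1 at -1.56 and -1.50. Clec4e, a receptor of macrophages, Lcn2, an iron-binding protein of neutrophils and inflamed tissue, and F13a1, a transglutaminase of monocytes, completed the 15 largest falls, at -3.15, -3.20 and -3.04.

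Promoters of this group are printed for the NF-kappaB letters GGGANTTTC, which occur on either strand in 4 of 20 chemokine genes with a promoter (20.0%), in 2 of 26 cytokine genes (7.7%) and in 1.1% of all genes. The cytokine list was added to the search after the chemokine list. All 4 chemokine genes with a match lie on chromosome 5, so they may not be independent occurrences. Cxcl3 and Cxcl2, neighbouring ligands of CXCR2, were chosen because they hold a match. Cxcl3 fell by 2.92 and Cxcl2 by 2.22, the second from 12.56, 12.50 and 12.67 at 36 h to 10.32, 10.38 and 10.38 at 60 h. The match starts 73 bases before the start in Cxcl3 (plus strand, chr5:90785851-90786100), 97 in Cxcl2 (plus strand, chr5:90903649-90903898) and 44 in Il6 (plus strand, chr5:30012864-30013113). Capitals mark it.
Cxcl3: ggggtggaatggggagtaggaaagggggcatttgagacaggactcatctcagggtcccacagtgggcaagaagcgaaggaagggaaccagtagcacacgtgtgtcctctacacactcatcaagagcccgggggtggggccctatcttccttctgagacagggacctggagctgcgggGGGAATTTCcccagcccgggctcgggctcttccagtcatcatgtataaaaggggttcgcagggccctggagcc
Cxcl2: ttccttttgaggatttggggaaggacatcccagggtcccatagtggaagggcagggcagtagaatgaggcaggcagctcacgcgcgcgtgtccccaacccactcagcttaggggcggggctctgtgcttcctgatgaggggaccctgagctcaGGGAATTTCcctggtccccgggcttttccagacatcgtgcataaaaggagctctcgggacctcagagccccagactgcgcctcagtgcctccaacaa
Il6: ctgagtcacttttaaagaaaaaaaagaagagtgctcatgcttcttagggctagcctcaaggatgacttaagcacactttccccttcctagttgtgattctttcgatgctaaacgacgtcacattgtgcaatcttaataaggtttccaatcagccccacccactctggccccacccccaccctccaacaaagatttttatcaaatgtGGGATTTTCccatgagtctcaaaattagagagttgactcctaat

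**Figure D4:**
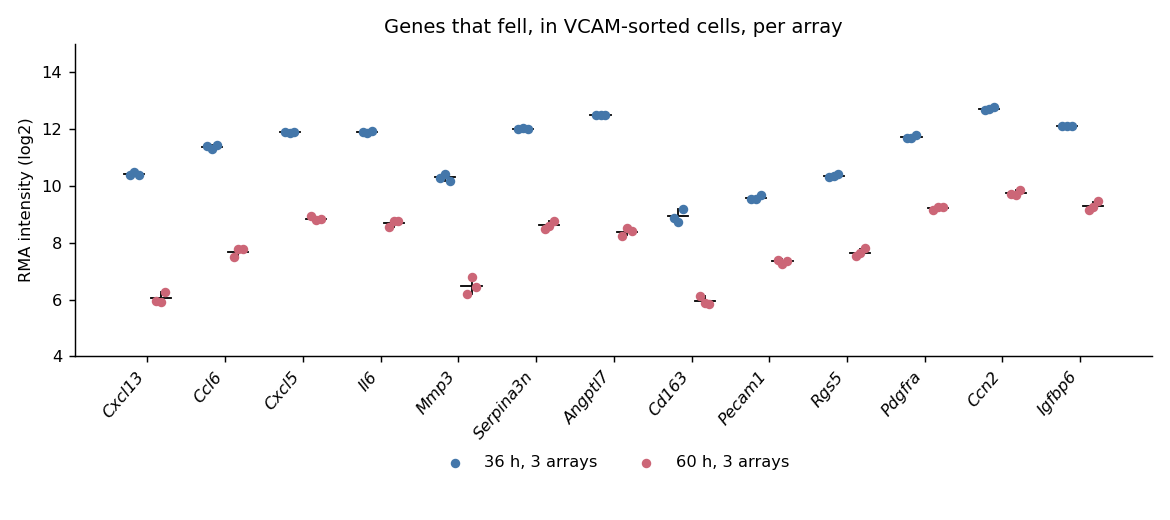
RMA intensity (log2) of 13 genes that fell, on each of the 3 arrays at 36 h (blue) and the 3 at 60 h (red), with group mean and SD as black lines. Cxcl13 moves from a mean of 10.41 to 6.05 and Rgs5 from 10.37 to 7.65, and for each of the 13 genes every array at 60 h lies below every array at 36 h.

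Immediate early genes respond to growth factors and stress within minutes, and these cells were freed with Collagenase II and Dispase and passed through a sorter ahead of RNA extraction, so their values describe isolated cells. Of 30 such genes 21 fell and 0 rose (median -1.07). Ccn2, a matricellular target of TGF-beta and of mechanical load, read 12.68, 12.70 and 12.77 at 36 h and 9.72, 9.69 and 9.86 at 60 h (log2 change -2.96, SE 0.04, adjusted p = 4e-25). The nuclear receptor genes Nr4a3 and Nr4a1 fell by 2.05 and 2.03, the second from 11.99, 12.01 and 12.05 at 36 h to 9.89, 10.02 and 10.03 at 60 h, and Ier3 and Egr2 by 2.01 and 1.90. The CRE letters TGACGTCA occur in 3 of 23 members with a promoter (13%) and in 1.8% of all genes, and the CArG box in 2 (8.7%) and in 1.6% of all genes. Of 24 heat shock and chaperone genes 6 were lower and 2 higher, against 8.49% and 6.26% of all genes. Dnaja4, Hspb1 and Hspa1a fell by 1.24, 1.08 and 1.02, and Hsf2, a heat shock transcription factor, rose by 1.04 from 9.01, 8.99 and 9.11 at 36 h to 10.06, 9.98 and 10.17 at 60 h.

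Growth factor genes fell more often than they rose. Of 32 FGF, IGF and HGF signalling genes 17 fell and 4 rose (median -0.63). The IGF-binding protein gene Igfbp6 read 12.11, 12.10 and 12.13 at 36 h and 9.14, 9.27 and 9.46 at 60 h (log2 change -2.82). Igf1, the growth factor itself, read 9.69, 9.79 and 9.83 at 36 h and 7.43, 7.54 and 7.56 at 60 h and fell 4.79-fold (log2 change -2.26, SE 0.06, adjusted p = 2.1e-21). Fgf2 fell by 1.90, and Igfbp7 and Igfbp4 by 2.26 and 1.65. Of 39 TGF-beta, BMP and activin genes 22 fell and 0 rose (median -0.64). The ligand genes Bmp5 and Inhba fell by 2.79 and 2.56, the second from 11.20, 11.27 and 11.31 at 36 h to 8.57, 8.67 and 8.86 at 60 h, the coreceptor gene Tgfbr3 by 2.53, and Ltbp2 and the antagonist gene Chrdl1 by 2.33 and 1.88. Of 39 Wnt pathway genes 6 rose and 7 fell, against 6.26% and 8.49% of all genes. The secreted inhibitors Wif1 and Sfrp4 fell by 1.67 and 1.55, Dkk3 by 1.202, the receptor gene Fzd1 fell by 1.28, and the receptor gene Fzd3 rose by 1.11. Notch signalling keeps satellite cells quiet. Of 27 of its genes 3 fell and 2 rose, shares near the 8.49% and 6.26% of all genes. The ligand gene Jag1 fell by 0.92, the receptor gene Notch3 by 0.67 and Dtx3 by 0.62, while the ligand gene Dll1 and the Hes family gene Hes6 rose by 0.78 and 0.73. With arrays centred on the genes tested Notch3 and Dtx3 were no longer called, at -0.56 and -0.51, nor was Dtx3 without replicate 2 at 60 h, at -0.57.

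Among 19 enzymes of H3K27 and DNA methylation 3 rose and 2 fell, against 6.26% and 8.49% of all genes, and most were not called. Ezh2, which writes H3K27me3, read 10.79, 10.76 and 10.78 at 36 h and 11.35, 11.42 and 11.42 at 60 h (log2 change 0.63, SE 0.04, adjusted p = 5.3e-13), and Kdm6b, which removes the mark, read 10.67, 10.73 and 10.81 at 36 h and 9.81, 9.88 and 10.05 at 60 h (log2 change -0.82, SE 0.05, adjusted p = 3.8e-13). Suz12, the partner of Ezh2, rose by 0.71 and the accessory subunit Phf19 by 0.88, while the cofactor Jarid2 fell by 0.77. The rise of Ezh2 was 1.54-fold, close to the fold required, and under quantile normalization it was 0.57 and no longer called.

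The same step was measured in YFP-sorted cells. Marker and mouse genotype differ together between the sorts and cannot be told apart. YFP cells had 1740 genes higher (8.73%) and 1711 lower (8.58%) at 60 h. Of the genes called higher in VCAM cells 64.5% were called higher in YFP cells, which is 46.3% of the latter, and of those called lower 68.4% and 67.7%. The 2 steps share no array. Limma's test of the difference itself called 554 genes with a higher change in VCAM cells (2.78%) and 808 with a lower change (4.05%). In opposite directions 5 genes were called, which were Ak1, Enc1, Mir199a-1, AY036118 and n-R5s136, and with arrays centred on the genes tested the change of AY036118 in VCAM cells, -0.57, was no longer called.

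Satellite cell genes differed in 1 direction. Of 24 markers 12 had a higher change in VCAM cells and 0 a lower one by limma (4 lower at an unadjusted p under 0.05). Pax7 fell in YFP cells from a mean of 10.03 to 9.16 (log2 change -0.87), and the difference of the steps was 1.10 (SE 0.09, adjusted p = 9.9e-10). At 36 h Pax7 was lower in VCAM cells, with a mean of 8.95, and at 60 h the means of both sorts were 9.19 and 9.16. Chrdl2 differed by 1.33 and Cdh15 by 0.94. Myog rose in VCAM cells while its YFP means were 9.35 and 9.42, a difference of 0.76 (adjusted p = 6.9e-07). The myogenic repressor Msc differed by 0.95, and Mymk by 0.62. Ttn rose further in VCAM cells, by a difference of 0.82, from a mean of 7.88 at 36 h against 8.63 in YFP cells.

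Markers of other cell types differed both ways. Of 36 macrophage markers 25 had a lower change in VCAM cells and 0 a higher one by limma (also 0 at an unadjusted p under 0.05). Cd163, a scavenger receptor of macrophages (probe set 10541644, chromosome 6), read 8.85, 8.73 and 9.20 at 36 h and 6.13, 5.89 and 5.86 at 60 h in VCAM cells against YFP means of 6.98 and 6.24, a difference of -2.23 (SE 0.15, adjusted p = 2.2e-11). Adgre1 differed by -1.72 and Mrc1 by -1.51. The summed macrophage level in YFP cells went from 14.85 to 14.87 at 36 h to 13.91 to 13.99 at 60 h. Of 22 endothelial markers 13 had a higher change in VCAM cells and 0 a lower one (also 0 at an unadjusted p under 0.05). Their summed level in YFP cells was 14.31 to 14.35 at 36 h and 12.29 to 12.33 at 60 h. Emcn, a sialomucin of vessels, differed by 1.13. The part of these markers in the other differences between the sorts was not tested. Chemokines differed in 11 of 29 cases, each with a lower change in VCAM cells, and Cxcl13 most, by -3.84 (adjusted p = 5.4e-13), its YFP means being 6.28 and 5.75. The alarmin gene Il33 fell by 1.82 in VCAM cells and had a change of 0.19 in YFP cells, a difference of -2.01. Il1a went the other way, with a difference of 1.49. Of 21 cholesterol synthesis genes 5 had a lower change in VCAM cells, Lss (lanosterol synthase) by most, at -1.28.

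**Figure D5:**
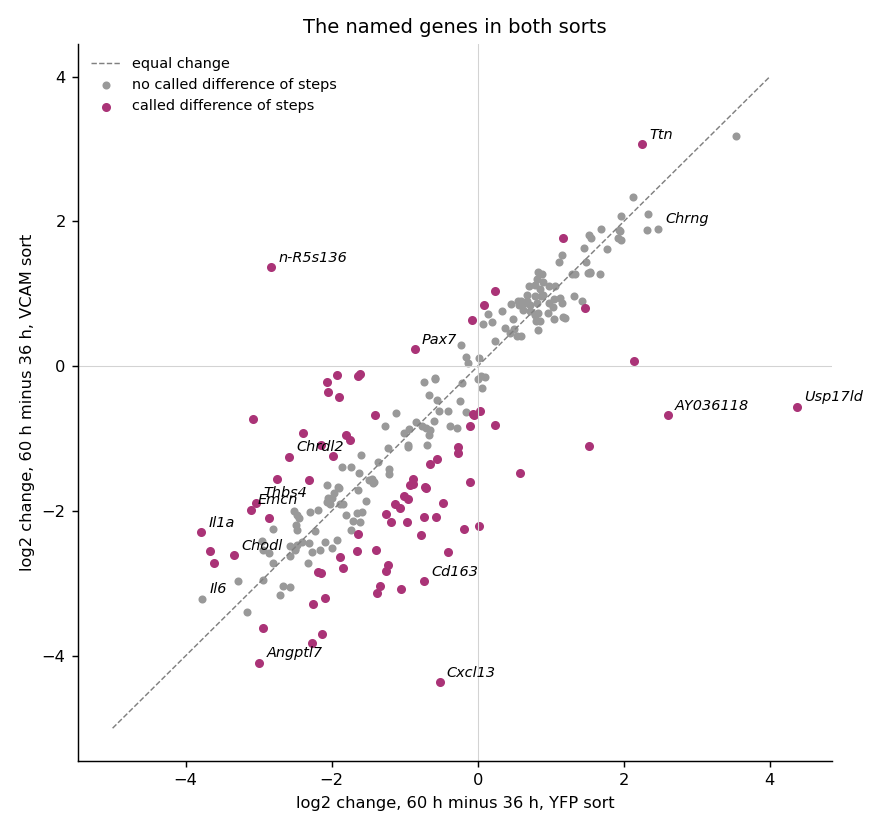
Log2 change from 36 to 60 h in VCAM-sorted cells (vertical) against YFP-sorted cells (horizontal) for the 256 genes of the naming rule, each point a gene, purple where the difference of the steps was called (85 genes). Cxcl13, at -4.36 and -0.52, lies far below the dashed line of equal change, and Pax7, at 0.24 and -0.87, above it.

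The largest differences of all lay in a member of a multigene family, in RNA genes and in AY036118. Usp17ld, a deubiquitinase of a multigene family, read 11.59, 11.60 and 11.24 at 36 h and 11.14, 10.89 and 10.73 at 60 h in VCAM cells and moved from 7.17 to 11.55 in YFP cells, a difference of -4.93 (adjusted p = 1.9e-16). The 5S ribosomal RNA gene n-R5s136 differed by 4.20, AY036118 by -3.28 and the microRNA gene Mir199a-1 by -2.63. Near-identical copies can share probes with Usp17ld and with n-R5s136, so neither signal can be given to 1 gene with certainty. At 36 h the mean of n-R5s136 was 12.93 in YFP cells and 10.03 in VCAM cells, and at 60 h 10.10 and 11.40. Further genes with a higher change in VCAM cells were P2ry14 (2.35), Clmn (1.81) and Ptprz1 (1.47), and with a lower change Cbr2 (-2.22), Wfdc17 (-2.17), Nrn1 (-2.06) and Rrad (-2.05).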

How the data were processed

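Total RNA of sorted cells (100 ng) was measured on Mouse Gene 1.0 ST arrays (Affymetrix). According to the labels, the authors made log2 intensities, as deposited, with RMA in Affymetrix Expression Console (versions not given in the sources used here). RMA sets all arrays to 1 distribution, which can hide a shift common to most genes. The deposited table holds 35556 probe sets on 30 arrays, of which 21789 have 1 gene symbol, 1621 several and 12146 none in the platform annotation. Symbols were updated through 21698 Entrez matches to RefSeq (GRCm38.p6), and the brightest probe set stood for a gene (19938 genes, 999 with several probe sets). Log2 values were fitted with limma 3.58.1 (R 4.3.3) as group means over all 30 arrays in 10 groups (20 residual degrees of freedom), with two-sided moderated tests and Benjamini-Hochberg adjustment over all genes. A gene was called at an adjusted p under 0.05 and a fold of at least 1.5. On simulated data with this spread, 28 of 50 genes changed 1.5-fold, 50 of 50 changed 2-fold and 0 of 19738 unchanged genes were called. The adjusted p alone was passed by 47 of the 50 genes changed 1.5-fold and by 8 of the unchanged genes. The fold threshold held back the rest. Array number limits the precision. Levels are array intensities and were not compared between genes.

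Named were the 15 largest rises and falls, the 5 largest changes of each of 45 gene lists (every member of lists of up to 12), the 10 largest differences of steps each way and Pax7, Myf5, Myod1, Myog, Ezh2, Kdm6b, Vcam1, Pecam1 and Ptprc. Cell type markers Adgre1, Csf1r, Scx, Cd3e and Cd79a come from the marker lists. Ak1, Cdh15, Cdh2, Cdkn2c, Chrna1, Cryab, Cxcl2, Cxcl3, Enc1, Il33, Kif14, Lama5, Lss, Met, Msc and Mymk were chosen after their values were seen. Members and lists were chosen with earlier results of these data known. Motifs were searched on both strands in the 250 bases before each gene's start. Alternatives were other scalings, filters, probe set rules, thresholds, variance models, a replicate block and leaving out each array.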

Additional observations from a re-analysis of the deposited data

Results flagged for a closer look

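Of the 208 genes named in the text, 78 had a change from 36 to 60 h that differed between the sorts by limma's test of the difference of steps (Benjamini-Hochberg adjusted p under 0.05 over all genes and a 1.5-fold difference). Over all genes 2.78% had a higher and 4.05% a lower change in VCAM cells. The change was higher in VCAM cells for 27 of them and lower for 51. Naming the genes with the largest changes favours such differences. Each value is the log2 change in VCAM cells minus that in YFP cells, over 3 arrays in each of 4 groups.

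Among satellite cell and myogenic genes, the change was higher in VCAM cells for Mymk (0.62), Chodl (0.72), Eya1 (0.72), Notch3 (0.73), Calcr (0.74), Myog (0.76), Cdh15 (0.94), Msc (0.95), Pax7 (1.10) and Chrdl2 (1.33). Among contractile and excitation genes, the change was higher in VCAM cells for Neb (0.61) and Ttn (0.82), and lower for Cacna2d1 (-0.84). Among macrophage, endothelial and other cell type markers, the change was higher in VCAM cells for Prg4 (1.11), Emcn (1.13) and Thbs4 (1.14), and lower for Cd163 (-2.23), Adgre1 (-1.72), Mrc1 (-1.51), Mkx (-1.51), Ngp (-1.49), Csf1r (-1.16), Lcn2 (-1.11), Angptl7 (-1.10) and Ptprc (-0.67). Among chemokine, cytokine, complement and NF-kappaB genes, the change was higher in VCAM cells for Il1a (1.49), and lower for Cxcl13 (-3.84), Il33 (-2.01), Pf4 (-1.76), Ccl6 (-1.58), Lif (-1.15), Ppbp (-1.03), Tlr2 (-0.97) and C5ar1 (-0.90). Among matrix, protease, adhesion and signalling genes, the change was higher in VCAM cells for Lama5 (0.73), Serpinb2 (0.89) and Sfrp4 (1.202), and lower for Igfbp6 (-1.57), Ltbp2 (-1.56), Mmp3 (-1.54), Chrdl1 (-1.41), Wif1 (-0.95), Bmp5 (-0.94), Dkk3 (-0.93), Sgcd (-0.89), Itga2 (-0.88), Itgb5 (-0.78), Fgf2 (-0.77), Mmp2 (-0.74), Fzd1 (-0.72) and Cdh11 (-0.67). Among genes of the other lists (cell cycle, metabolism, stress), the change was higher in VCAM cells for Hspa1a (0.73), Dnaja4 (0.74), Hsf2 (0.81) and Hspb1 (1.07), and lower for Lss (-1.28), Ccnd2 (-0.78), Hk2 (-0.70), Phgdh (-0.66), Slc7a11 (-0.65), Hsd17b7 (-0.65) and Ebp (-0.60). Among genes outside the lists, the change was higher in VCAM cells for Ptprz1 (1.47), Clmn (1.81), P2ry14 (2.35) and n-R5s136 (4.20), and lower for Usp17ld (-4.93), AY036118 (-3.28), Mir199a-1 (-2.63), Cbr2 (-2.22), Wfdc17 (-2.17), Nrn1 (-2.06), Rrad (-2.05), Vit (-2.02), Ak1 (-1.90), F13a1 (-1.71), Enc1 (-1.38) and Adh1 (-0.67).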

How the results depend on the processing

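The 6 counts of genes called (higher and lower in each step and in the difference of steps) stayed within 1.5 times under array-median centring, quantile normalization, all probe sets, the mean of probe sets, only the arrays compared, an intensity trend with robust estimation, no dim genes and each array left out. With centring on the tested genes, chosen after seeing the data, the VCAM step had 1992 higher and 1384 lower, and the YFP step 2258 and 1463. With a fold of at least 2 the counts were 214 and 864 in VCAM cells, 384 and 846 in YFP cells, and 67 and 163 for the difference. With no fold threshold they were 5348 and 4065, 5873 and 4444, and 2833 and 3322. Leaving out 1 array gave 1096 to 1437 higher and 1669 to 1741 lower in VCAM cells, 1659 to 1813 and 1697 to 1740 in YFP cells, and 543 to 620 and 762 to 871 for the difference. Same-numbered VCAM arrays had deviations correlated at 0.163, -0.010 and 0.269, and YFP arrays at 0.026, 0.032 and 0.050. Arrays of unlike number had -0.274 to 0.1275 in VCAM cells and -0.034 to 0.0008 in YFP cells. Whether a replicate number stands for shared handling was not tested. With the replicate block the counts were 1249 and 1692, 1740 and 1711, and 554 and 808. The block cannot move the changes, because every group holds each replicate number. The change of Cd79a, 0.05 with all arrays, ranged from -0.0735 to 0.1252 with 1 array left out, and turned negative without replicate 3 at 36 h (-0.0233) or replicate 2 at 60 h (-0.0735), and it was called in none of these fits. Besides the calls given in the report, Usp17ld was called under quantile normalization (-0.59) and without replicate 3 at 36 h or replicate 1 at 60 h, Msc without replicate 3 at 60 h (-0.59) and Nolc1 with arrays centred on their medians (0.60) and without replicate 3 at 36 h or replicate 1 at 60 h. Ldhb was not called with the mean of probe sets (0.4997), nor Tcf12 under quantile normalization (0.5487). The cause of these changes was not tested. List medians given in the report kept their sign in every setting.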
